A study of Homo sapiens with 3 samples.

Results

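The proteasome genes described here are 52 of the 22827 genes in a table of read counts from 3 RNA sequencing libraries of Hep3B, an established human hepatocellular carcinoma line. They were chosen by name and not by their values, although earlier results of these data were known at the time. The set holds protein-coding genes whose symbol begins with PSMA, PSMB, PSMC, PSMD, PSME, PSMF or PSMG followed by a digit, together with POMP, ADRM1 and NFE2L1. By known role the 52 genes fell into 7 alpha and 6 beta subunits of the core, 3 immunoproteasome subunits, 2 tissue-restricted core subunits, 10 subunits of the base of the cap, 8 of its lid, 5 activators and inhibitors, 8 assembly factors, the regulator NFE2L1, and 2 genes that carry a matching symbol without being subunits (PSMC3IP and PSME3IP1). PSMB3 was not analysed here.

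The proteasome is the barrel-shaped protease that degrades ubiquitin-tagged proteins in the cytosol and nucleus. Stacked rings of alpha and beta subunits form the core particle, in which PSMB5, PSMB6 and PSMB7 carry the catalytic sites. Caps with an ATPase base and a lid recognise, unfold and feed in the substrates, and dedicated chaperones assemble both particles. In cells exposed to interferon, PSMB8, PSMB9 and PSMB10 replace the catalytic subunits to make the immunoproteasome, which supplies peptides for antigen presentation. NFE2L1 is the transcription factor that raises proteasome gene expression when proteasome activity falls.

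The control library came from Hep3B cells labelled control, the USP39-KO library from Hep3B cells with a knockout of USP39, and the SIRT7-KO library from Hep3B cells with a knockout of SIRT7, with 1 library of each. USP39 is a ubiquitin-specific protease homologue of the spliceosome, and SIRT7 is a nuclear deacylase of the sirtuin family. The sources used here do not give how the knockouts were made or whether each library came from 1 clone or a pool. With 1 library per group, differences had no replicate check, no test was made, and each comparison describes the libraries and not the genotypes.

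Counts summed to between 16151522 and 19427940 per library, and each targeted gene was lowest in the library named for it. Where 1 quantity has 3 values, the order is control, USP39-KO, SIRT7-KO. USP39 had 1829, 1066 and 1511 reads (log2 ratio -0.54 in USP39-KO), and SIRT7 had 984, 808 and 608 (log2 ratio -0.44 in SIRT7-KO). Of 11 hepatocyte markers, 6 were listed at 0 in all libraries, ALB, AFP and TTR among them, and 9 had under 10 counts in every library. The summed level of the 11 was 8.90, 2.07 and 0.613 CPM (counts scaled to library size). Of 13 immune cell markers, which matter because immune cells carry immunoproteasomes, 7 were listed at 0, among them PTPRC, CD3D and CD68, and 11 had under 10 counts in every library. Their summed level was 3.96, 4.01 and 5.09 CPM again in that order. For both lists a 0 is not read as absence, because RPS18 and TUBB, which nearly all cells use, were also at 0. Both lie in a region of chromosome 6 where most genes were at 0, while UBA1 and HCFC1, on chromosome X, were at 0 as well. ALB and AFP (chromosome 4), TTR (chromosome 18) and PTPRC (chromosome 1) lie outside that region. Whether their 0 has the same source was not tested. The identity of the line is taken from the labels and was not tested with these markers.

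The promoters of 5 proteasome genes are shown first. PSMA5, PSMB4, PSME1 and PSMD9 are among the genes that differed by at least 1.2-fold in the results that follow, and NFE2L1 is the regulator of the set. The other genes past that size against control could not be shown. PSMD4 had no RefSeq promoter entry, and PSMC5, PSME2 and PSMG2 had no upstream stretch of at least 150 bases outside exons. Each stretch is the part upstream of the gene's start, outside every annotated exon, read 5′ to 3′ on the gene's own strand from the RefSeq promoter table (build GRCh38.p14). The positions are chr1:109426449-109426698 on the minus strand for PSMA5, chr1:151399323-151399533 on the plus strand for PSMB4, chr12:121888540-121888730 on the plus strand for PSMD9, chr14:24135944-24136157 on the plus strand for PSME1 and chr17:48048109-48048328 on the plus strand for NFE2L1. Capitals mark matches, on either strand, to the letters of 6 motifs: TGACNNNGC (the core of the antioxidant response element, which NFE2L1 binds), CCAAT (the CCAAT box), CCGGAAG (the core bound by ETS factors), GGGCGG (the GC box), TTCNNNGAA (the gamma-activated site) and the core of the interferon-stimulated response element (GAAA repeated after a gap of any 2 bases).
PSMA5: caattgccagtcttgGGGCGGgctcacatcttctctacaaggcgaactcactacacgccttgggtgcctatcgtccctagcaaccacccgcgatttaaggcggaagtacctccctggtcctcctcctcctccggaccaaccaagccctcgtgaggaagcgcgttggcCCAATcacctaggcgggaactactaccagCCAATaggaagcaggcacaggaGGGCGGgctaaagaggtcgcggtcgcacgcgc
PSMB4: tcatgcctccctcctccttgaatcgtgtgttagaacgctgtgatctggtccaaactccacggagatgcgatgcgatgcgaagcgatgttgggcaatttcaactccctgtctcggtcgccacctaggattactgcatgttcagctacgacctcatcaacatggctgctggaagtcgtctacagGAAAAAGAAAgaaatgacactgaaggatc
PSMD9: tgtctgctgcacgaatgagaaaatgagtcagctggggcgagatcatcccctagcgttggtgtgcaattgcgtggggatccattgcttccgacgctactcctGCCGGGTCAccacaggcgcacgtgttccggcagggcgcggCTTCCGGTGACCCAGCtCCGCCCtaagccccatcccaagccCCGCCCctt
PSME1: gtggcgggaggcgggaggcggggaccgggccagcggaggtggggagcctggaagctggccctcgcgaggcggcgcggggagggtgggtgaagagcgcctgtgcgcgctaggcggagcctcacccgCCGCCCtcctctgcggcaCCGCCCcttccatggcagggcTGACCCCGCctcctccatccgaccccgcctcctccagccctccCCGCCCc
NFE2L1: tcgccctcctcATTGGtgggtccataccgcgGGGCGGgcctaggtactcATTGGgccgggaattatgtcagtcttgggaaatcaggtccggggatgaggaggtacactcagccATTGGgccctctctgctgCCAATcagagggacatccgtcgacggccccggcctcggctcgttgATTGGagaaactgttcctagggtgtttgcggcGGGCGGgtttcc
No 2 matches overlapped in these stretches, although a pair in PSMD9 abuts. The PSMA5 stretch held 2 matches of the CCAAT box and 2 of the GC box, and that of NFE2L1 held 5 and 2. The PSMD9 stretch held 2 matches of the antioxidant element core, 1 of the ETS core and 2 of the GC box. The PSME1 stretch held 1 of the antioxidant element core and 3 of the GC box, and the PSMB4 stretch held 1 match, of the interferon element core, and none of the other 5 motifs.

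Across the 46 proteasome genes with an entry in that table, windows of 300 bases (250 before to 50 after the start) were searched for the same letters. The antioxidant element core was in the windows of 13 proteasome genes (28.3%), against 14.3% of the 15843 windows of protein-coding genes. The ETS core was in 15 (32.6%, against 14.2%), the CCAAT box in 22 (47.8%, against 36.4%) and the GC box in 31 (67.4%, against 58.5%). The gamma-activated site was in 5 (10.9%, against 6.97%). The interferon element core was in 6 (13.0%, against 3.18%), namely PSMA4, PSMB4, PSMB10, PSME1, PSME2 and PSMG4. PSME1 and PSME2, the subunits of the interferon-inducible activator, both held it together with the antioxidant element core. A match is a description of the letters and not a binding site.

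Levels of different genes were compared per length, as FPKM (fragments per kilobase of listed gene length and per sequencing depth, as deposited). For 40 of 52 genes that length was within 1% of all exons in the GENCODE 29 annotation merged, which can exceed the length of a single transcript. The set held 0.605%, 0.592% and 0.598% of all counts in the libraries, in that order. The most abundant proteasome messages per length in the control were PSMC3, an ATPase of the base, at 147 FPKM, PSMA7, an alpha subunit, at 137 and PSMB7, a catalytic beta subunit, at 120. In USP39-KO PSMA7 was first at 152 FPKM, ahead of PSMC3 at 131, and in SIRT7-KO PSMA7 was at 145 and PSMC3 at 140. Although core subunits are assembled in equal numbers, their messages were not equally abundant: the beta subunits ran from 19.3 FPKM (PSMB5) to 120 in the control. Median FPKM in the control was 64.9 for the beta subunits, 49.4 for the base ATPases, 40.1 for the other base subunits, 32.8 for the alpha subunits, 27.2 for the assembly factors, 26.7 for the lid and 16.7 for the activators and inhibitor. Listed lengths differed between roles, from 1420 to 2701 bases for the beta subunits and from 2740 to 9095 for the lid. A longer listed length lowers FPKM, and its part in the order of these medians was not tested. The alpha median includes PSMA1, PSMA2 and PSMA6 (3.58, 0.560 and 0.469 FPKM), whose exons overlap another gene and whose levels are uncertain. The other alpha subunits were PSMA3 at 32.8, PSMA5 at 34.7, PSMA4 at 70.9 and PSMA7 at 137 FPKM. The rank of the alpha subunits among these medians is therefore uncertain. PSMD9, at 0.627 FPKM among the assembly factors, has the same limit. No spread over samples is known for any of these levels.

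**Figure D1:**
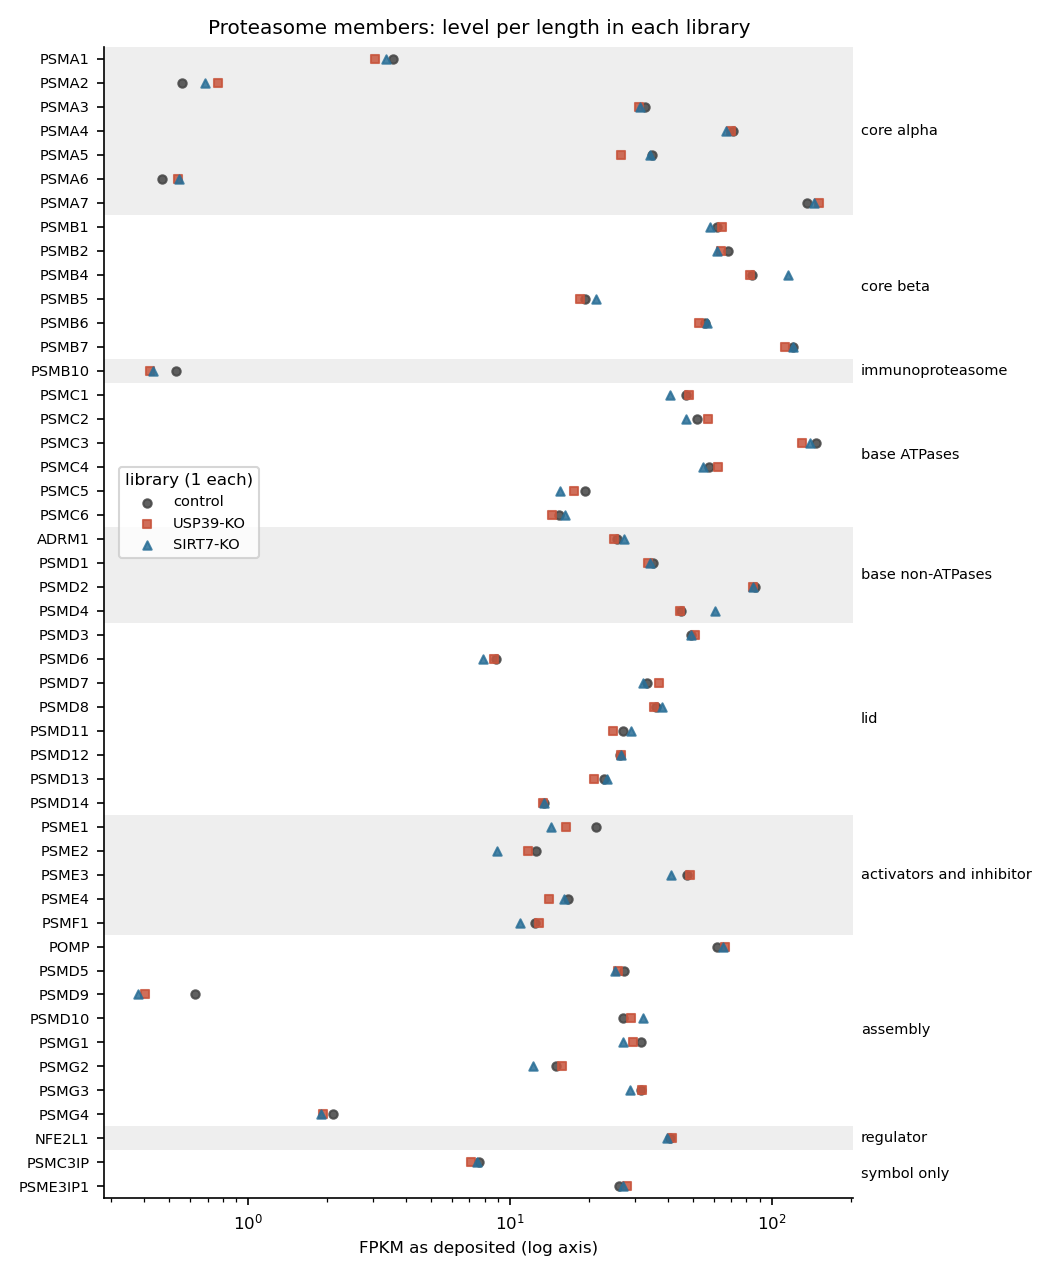
Level per length (FPKM as deposited, log axis) of the 48 proteasome genes with reads in all 3 libraries, 1 point per library, grouped by role. PSMC3, PSMA7 and PSMB7 lie at the right, with PSMB7 in USP39-KO the lowest of them at 113 FPKM, while PSMA2, PSMA6, PSMB10 and PSMD9 lie below 1 FPKM.

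A few subunits that every proteasome needs had low counts. PSMA2 had 58, 68 and 59 reads and PSMA6 59, 58 and 57, and PSMA1 had 258, 188 and 201. The alpha ring contains each of these alongside PSMA7, which had 4645, 4419 and 4092 reads. In the GENCODE 29 annotation, exons of PSMA1, PSMA2, PSMA6, PSMB10 and PSMD9 overlap another gene on the same strand over 24.7%, 14.6%, 14.1%, 34.8% and 19.9% of their length. These 5 had 0.469 to 3.58 FPKM in the control. The other 43 genes with enough reads to compare had at most 2.95% overlap on the same strand and 2.10 to 147 FPKM. With either strand counted, overlap among them reached 75.8% for PSMC1, 30.7% for PSMD7 and 29.9% for PSMC3IP. Their control levels were 47.2, 33.3 and 7.60 FPKM, and the strand setting of the counts is not given. The sources used here do not say how reads in overlapping genes were counted, and its part in these low levels was not tested. Levels of the 5 genes with the larger same-strand overlap are therefore uncertain.

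For differences between libraries, counts were scaled by TMM (trimmed mean of M values) and compared as log2 ratios, each with an exact 95% interval of the pair of counts that covers counting error only. Proteasome genes were compared where a library had at least 10 counts, which held for 48 of 52. The remaining genes were PSMA8, PSMB8 and PSMB9, listed at 0 in all libraries, and PSMB11, with 1 read in the control. A gene counted as higher or lower when the ratio reached a set size and the interval excluded 0. Sizes of 2-fold and 1.2-fold (0.26 on the log2 scale) were used. Both knockout libraries were set against the same control library, so the 2 comparisons are not independent of each other.

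No proteasome gene reached 2-fold in any comparison. Over all 12726 genes compared, 1.49% were higher and 3.37% lower by that size in USP39-KO against control, 3.02% and 4.05% in SIRT7-KO against control, and 3.51% and 5.03% in USP39-KO against SIRT7-KO. Most proteasome genes have many reads, and genes with many reads pass this size less often: among the 4784 genes with at least 1000 counts in a library, the shares were 0.209% and 0.314%, 0.523% and 0.732%, and 1.09% in each direction. At those shares a set of 37 well-covered proteasome genes with none past 2-fold is near the background.

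At 1.2-fold, USP39-KO had 0 proteasome genes higher (background 10.1%) and 3 lower (background 13.6%), namely PSMA5, PSME1 and PSMD9. SIRT7-KO had 2 higher (background 17.6%), PSMB4 and PSMD4, and 5 lower (background 18%), PSME1, PSME2, PSMC5, PSMD9 and PSMG2. The median log2 ratio of the 48 genes was -0.01 in USP39-KO and -0.06 in SIRT7-KO, beside 0.00 and -0.01 over all genes compared. In USP39-KO 43 of 48 (89.6%) lay within 1.2-fold of the control, beside 65.6% of all genes, and in SIRT7-KO 39 of 48 (81.2%), beside 54.4%. Among genes with at least 1000 counts, 36 of 37 proteasome genes (97.3%) lay within 1.2-fold in USP39-KO, beside 84.4%, and 34 of 37 (91.9%) in SIRT7-KO, beside 71.0%. In that subset USP39-KO had 0 proteasome genes higher and 1 lower (backgrounds 7.11% and 8.53%), and 2 were higher and 1 lower in SIRT7-KO (backgrounds 14.2% and 14.8%).

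**Figure D2:**
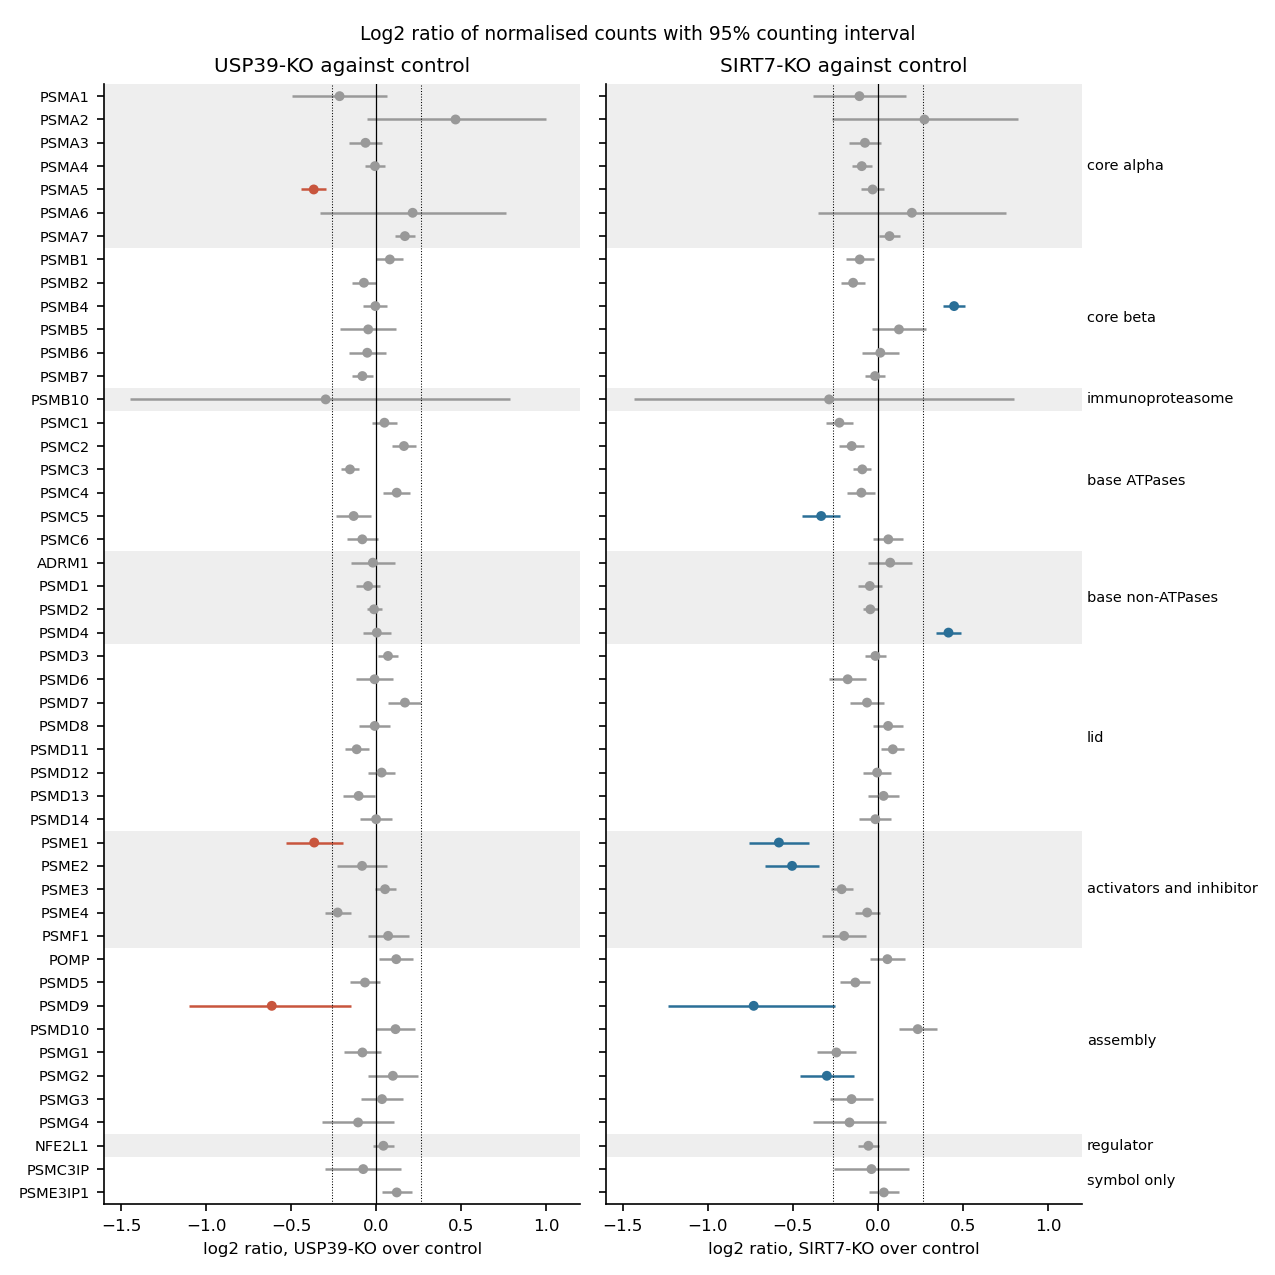
Log2 ratio of normalised counts in USP39-KO and SIRT7-KO over control for the 48 proteasome genes compared, with exact 95% counting intervals. Dotted lines mark 1.2-fold and coloured points pass that size with an interval excluding 0: 3 in USP39-KO, all lower, and 7 in SIRT7-KO, 2 higher and 5 lower.

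**Figure D3:**
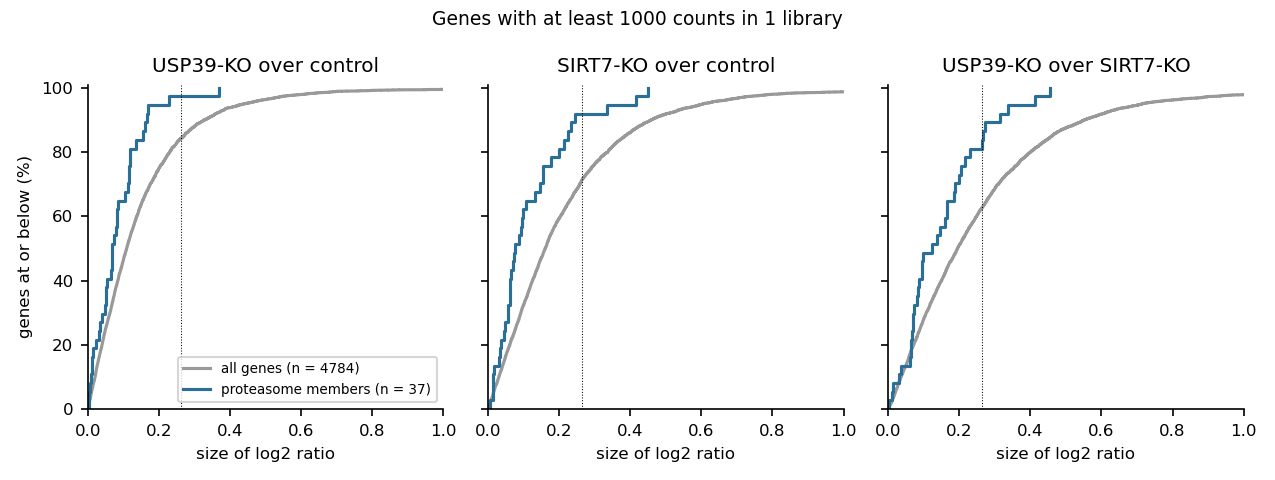
Share of genes (percent, vertical axis) with a log2 ratio of at most the size on the horizontal axis, for the 37 proteasome genes and for all 4784 genes with at least 1000 counts in 1 library. At the 1.2-fold line the proteasome genes reach 97.3% in USP39-KO and 91.9% in SIRT7-KO against control, above the 84.4% and 71.0% of all genes.

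Among the alpha subunits of the core, PSMA5 was the gene that stood apart in USP39-KO. PSMA5 (ENSG00000143106; minus strand of chromosome 1, 109399031 to 109426427) had 3872, 2540 and 3184 reads, or 199 CPM, 154 CPM and 195 CPM. It was low in USP39-KO only (log2 ratio -0.37, interval -0.44 to -0.30), with a ratio of -0.03 in SIRT7-KO (-0.10 to 0.04). PSMA7 was at 239, 269 and 251 CPM, with ratios of 0.17 (0.11 to 0.23) and 0.07 (0.01 to 0.13), under the 1.2-fold size. PSMA1 had ratios of -0.22 in USP39-KO and -0.11 in SIRT7-KO, with intervals that include 0. The other alpha subunits with over 1000 reads, PSMA3 and PSMA4, lay between -0.09 and -0.01. PSMA2 had the highest ratio of the group in USP39-KO, 0.47, on 58 and 68 reads, and its interval (-0.06 to 1.00) includes 0.

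Genes near PSMA5 on chromosome 1 were lower in USP39-KO as well. Of 33 other genes with at least 300 summed counts within 2 Mb, 30 were below 0, with a median log2 ratio of -0.38, beside -0.01 for the rest of the chromosome. Relative to that median PSMA5 was at 0.01. The pattern ran beyond the window: 18 of 18 genes from 2 to 5 Mb and 15 of 15 from 5 to 10 Mb on the side of higher coordinates were below 0 (medians -0.41 and -0.40), as were 14 of 15 from 5 to 10 Mb on the other side (median -0.46). In SIRT7-KO the same 2 Mb held 18 genes above 0 and 15 below. What the PSMA5 value shares with its neighbours was not tested.

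Among the beta subunits PSMB4 stood apart in SIRT7-KO. PSMB4 (ENSG00000159377; chromosome 1, 151399534 to 151401944, plus strand) had 3513, 2963 and 4027 reads, or 181 CPM, 180.0 CPM and 247 CPM. It was high in SIRT7-KO, with a log2 ratio of 0.45 (0.38 to 0.51), and its ratio in USP39-KO was -0.01 (-0.08 to 0.06). The catalytic subunits did not pass 1.2-fold in either knockout. PSMB5, the chymotrypsin-like subunit, had 663, 543 and 607 reads and ratios of -0.05 (-0.22 to 0.12) and 0.12 (-0.04 to 0.29). PSMB6, the caspase-like subunit, had 1532, 1250 and 1300 reads, with ratios of -0.05 and 0.01. PSMB7, the trypsin-like subunit, had 5037, 4029 and 4183 reads, with ratios of -0.08 (-0.14 to -0.02) and -0.02. PSMB1 had the highest ratio of the group in USP39-KO, 0.08, and PSMB2 the lowest in SIRT7-KO, -0.15 (-0.22 to -0.07).

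PSMD4, which lies 145 kb from PSMB4 (start to start), was the other proteasome gene higher in SIRT7-KO. PSMD4 (ENSG00000159352; chromosome 1, 151254703 to 151267479, plus strand) encodes a ubiquitin receptor of the base. It had 2651, 2249 and 2970 reads, or 136 CPM, 137 CPM and 182 CPM. The SIRT7-KO library was again the high one (log2 ratio 0.42, 0.34 to 0.49), while USP39-KO had 0.00 (-0.08 to 0.08). Within 2 Mb of PSMB4, 32 of 33 other genes were above 0 in SIRT7-KO, with a median of 0.40, beside 0.06 for the rest of the chromosome, and around PSMD4 33 of 34 were above 0 (median 0.37). Relative to these medians PSMB4 was at 0.05 and PSMD4 at 0.04. Within 0.5 Mb the medians were 0.25 and 0.26, and relative to those PSMB4 was at 0.20 and PSMD4 at 0.15. On the side of higher coordinates, 58 of 59 genes from 2 to 5 Mb, 38 of 39 from 5 to 10 Mb and 25 of 28 from 10 to 20 Mb were above 0 (medians 0.30, 0.42 and 0.41). In USP39-KO the genes within 2 Mb of PSMB4 had a median of -0.07. The 2 higher proteasome genes in SIRT7-KO lie in the same stretch, and what they share with their neighbours was not tested.

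**Figure D4:**
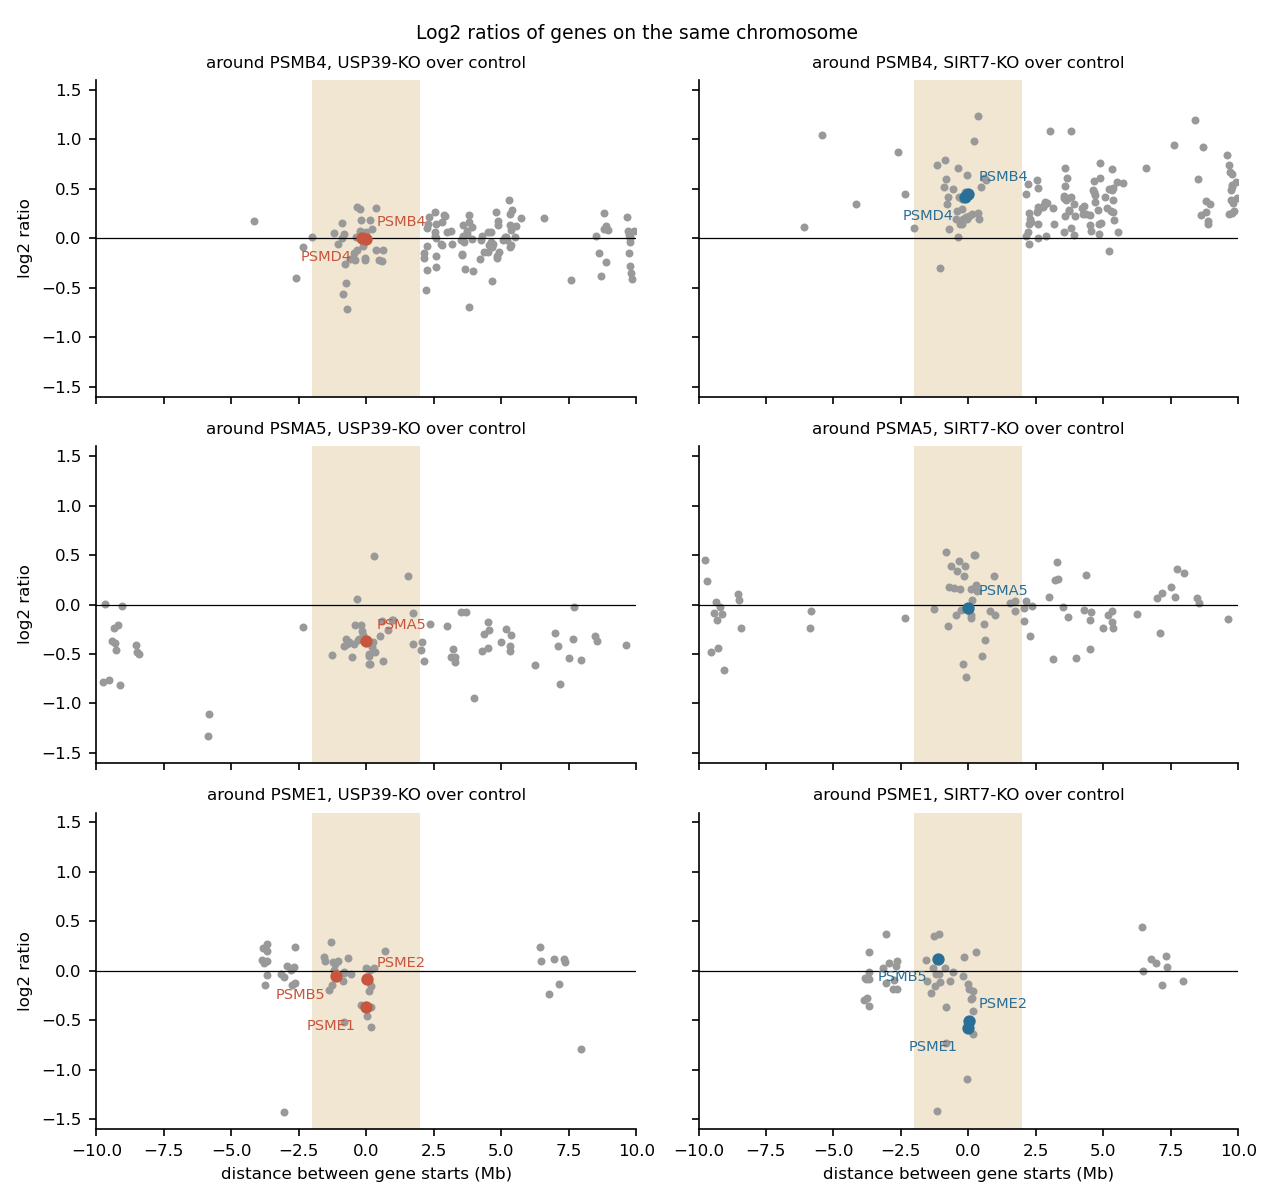
Log2 ratio over control of proteasome genes (coloured, named) and of other genes with at least 300 summed counts (grey) by distance between gene starts in Mb, around PSMB4, PSMA5 and PSME1, with the 2 Mb window shaded. Genes around PSMB4 lie above 0 in SIRT7-KO and genes around PSMA5 below 0 in USP39-KO, and 5 points in all lie beyond the vertical axis, 4 around PSMA5 and 1 around PSMB4.

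The inducible subunits of the immunoproteasome were listed with few reads or none. PSMB8 and PSMB9 were listed at 0 in all libraries. By counting error alone, 0 reads permit 0.154 CPM in the control, 0.182 CPM in USP39-KO and 0.184 CPM in SIRT7-KO, but for PSMB8 and PSMB9 these limits are no bound on expression, since genes that nearly all cells use are listed at 0 around them. PSMB10, with overlapping exons and an uncertain level, had 19, 13 and 13 reads. Per length it made up 0.436% of the sum with its constitutive partner PSMB7 in the control (exact binomial interval 0.263 to 0.680%), 0.373% in USP39-KO (0.199 to 0.637%) and 0.360% in SIRT7-KO (0.192 to 0.614%). The intervals overlap, and a difference in this share was not detectable at this depth. The thymus-specific PSMB11 had 1 read in the control and 0 elsewhere, and the testis-specific PSMA8 was listed at 0.

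The 0 of PSMB8 and PSMB9 has a regional context. Both genes lie in the major histocompatibility complex on chromosome 6 (PSMB8 at 32840717 to 32844703, PSMB9 at 32844136 to 32859585). Within 1 Mb of PSMB9, 55 of 74 protein-coding genes were listed at 0 in all libraries (74.3%, exact binomial interval 62.8 to 83.8%), and within 3 Mb 124 of 188 (66.0%, 58.7 to 72.7%). On the rest of the chromosome 206 of 800 were at 0 (25.8%), and on other chromosomes 4083 of 18142 (22.5%). The genes at 0 in this region include RPS18, a ribosomal protein, and TUBB, a tubulin, which nearly all cells use, as well as the peptide transporters TAP1 and TAP2. PSMB8 and PSMB9 are therefore reported only as listed at 0, and their expression cannot be read from this table.

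**Figure D5:**
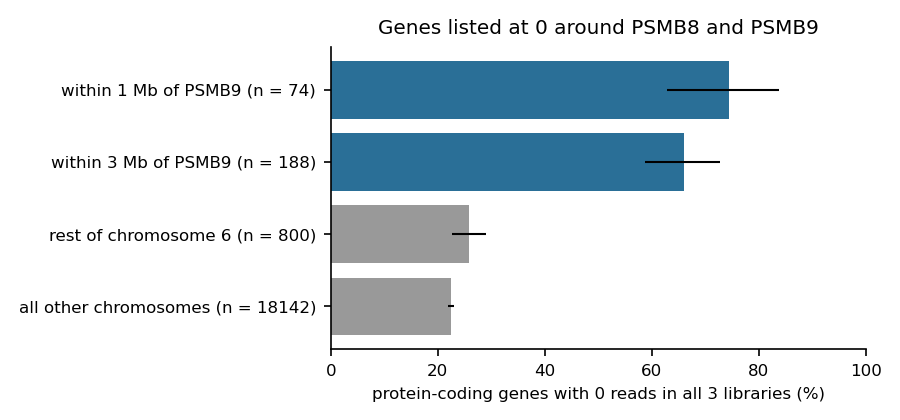
Share of protein-coding genes with 0 reads in all 3 libraries (percent, bars) with exact 95% binomial intervals (lines), by distance from PSMB9. The share is 74.3% within 1 Mb and 66.0% within 3 Mb, against 25.8% on the rest of chromosome 6 and 22.5% on the other chromosomes.

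The ATPases of the base, which unfold substrates, had 6 of 6 within 1.2-fold in USP39-KO and a median of -0.02. Each has over 1000 counts, and 84.4% of all genes with at least 1000 counts lay within that size. The 6 of 6 is near that background. PSMC2 had the highest ratio (183, 204 and 164 CPM; 0.16, 0.09 to 0.23, in USP39-KO) and PSMC3 the lowest (330.3 CPM, 297 CPM and 310.0 CPM; -0.16, -0.21 to -0.10). In SIRT7-KO 5 of 6 were below 0 (6521 of 12726 over all genes compared), with a median of -0.13, and PSMC6 was above (0.06). PSMC5 was lower by the 1.2-fold size there (background 18%). PSMC5 (ENSG00000087191; chromosome 17, 63827152 to 63832026, plus strand) had 1692, 1306 and 1128 reads, or 87.1 CPM, 79.4 CPM and 69.1 CPM. It was lowest in SIRT7-KO (log2 ratio -0.33, -0.44 to -0.22), with -0.13 (-0.24 to -0.03) in USP39-KO. Its 20 neighbours within 2 Mb had a median of -0.06 in SIRT7-KO, and PSMC5 was at -0.27 relative to them.

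Apart from PSMD4, the non-ATPase subunits of the base and the 8 subunits of the lid lay within 1.2-fold of the control. Among all genes with at least 1000 counts, 84.4% lay within that size in USP39-KO and 71.0% in SIRT7-KO. PSMD2, a scaffold of the base and the member with the most reads, had 9167, 7690 and 7468 reads and ratios of -0.01 and -0.04. ADRM1, a ubiquitin receptor, had 1065, 889 and 941 reads and ratios of -0.02 (-0.15 to 0.11) and 0.07 (-0.06 to 0.20). The 8 lid genes also lay within 1.2-fold when the knockouts were set against each other, beside 62.4% of genes with at least 1000 counts. Relative to their neighbours within 2 Mb, however, PSMD11 was at -0.46 and PSMD12 at 0.36. Among the lid genes the highest and lowest ratios in USP39-KO were those of PSMD7 (0.17, 0.07 to 0.26) and PSMD11 (-0.12, -0.19 to -0.05). In SIRT7-KO they were PSMD11 (0.09, 0.02 to 0.16) and PSMD6 (-0.18, -0.29 to -0.07). PSMD3, the lid gene with the highest level per length, was at 49.2, 51.0 and 49.2 FPKM. The deubiquitinase PSMD14, which removes ubiquitin chains from substrates, had ratios of 0.00 and -0.01.

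The activators and the inhibitor held the lowest median among the groups with more than 1 gene compared, in both knockouts. In SIRT7-KO 5 of 5 were below 0 (6521 of 12726 over all genes compared), with a median of -0.21. By the 1.2-fold size 2 were lower (background 18%). These 2 were PSME1 and PSME2, which form the ring-shaped activator that opens the core without ATP. PSME1 (ENSG00000092010; chromosome 14, 24136158 to 24138967, plus strand) had 738, 485 and 414 reads, or 38.0 CPM, 29.5 CPM and 25.4 CPM. It was low in both knockout libraries, with log2 ratios of -0.37 (-0.53 to -0.20) in USP39-KO and -0.58 (-0.76 to -0.41) in SIRT7-KO. PSME2 (ENSG00000100911; minus strand of chromosome 14, 24143362 to 24147570) starts 7.20 kb from PSME1 and had 875, 699 and 518 reads, or 45.0 CPM, 42.5 CPM and 31.7 CPM. It was low in SIRT7-KO (-0.50, -0.66 to -0.35), and at -0.08 in USP39-KO its interval (-0.23 to 0.06) includes 0.

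The neighbourhood of PSME1 and PSME2 was lower in SIRT7-KO by a smaller amount. Of 28 other genes within 2 Mb, 21 were below 0 with a median of -0.12, and of the 12 within 0.5 Mb 10 were below 0 with a median of -0.24. Relative to the 2 Mb median PSME1 was at -0.46 and PSME2 at -0.38. Relative to the 0.5 Mb median PSME1 was at -0.34 and PSME2 at -0.26. In USP39-KO the 2 Mb median was -0.03 and PSME1 was at -0.34 relative to it. Within 0.5 Mb 8 of 11 genes were below 0 there, with a median of -0.16, and PSME1 was at -0.21 relative to that, short of the 1.2-fold size. PSME3, the nuclear activator, had ratios of 0.05 (-0.01 to 0.11) and -0.21 (-0.28 to -0.15). PSME4, a single-chain activator, had -0.23 (-0.30 to -0.15) in USP39-KO and -0.06 in SIRT7-KO, and the inhibitor PSMF1 had 0.07 and -0.20 (-0.33 to -0.07).

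Over all 12726 genes compared, 6521 were below 0 in SIRT7-KO and 6409 in USP39-KO. Of the 8 assembly factors, 6 were below 0 in SIRT7-KO (median -0.16) and 4 in USP39-KO (median -0.02). POMP, the chaperone that completes the core, was the most abundant per length (61.8, 66.3 and 64.9 FPKM). Its reads were 1714, 1574 and 1497, with ratios of 0.12 (0.02 to 0.22) and 0.06 (-0.04 to 0.16). PSMG2, a partner of PSMG1 in forming the alpha ring, had 796, 721 and 543 reads, or 41.0 CPM, 43.8 CPM and 33.3 CPM. It was lowest in SIRT7-KO (log2 ratio -0.30, -0.46 to -0.14), with 0.10 (-0.05 to 0.24) in USP39-KO. PSMG1 had -0.24 (-0.36 to -0.13) in SIRT7-KO, short of the 1.2-fold size. The 16 neighbours of PSMG2 had a median of -0.18 in SIRT7-KO, and PSMG2 was at -0.12 relative to them.

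PSMD9, an assembly chaperone of the base, had the largest ratios of the compared genes that passed the size rule, on few reads. PSMD9 (ENSG00000110801; chromosome 12, 121888731 to 121918297, plus strand) had 107, 59 and 54 reads, or 5.51 CPM, 3.58 CPM and 3.31 CPM. Both knockout libraries were below the control, with log2 ratios of -0.62 (-1.10 to -0.15) and -0.73 (-1.23 to -0.25). It is one of the 5 genes with overlapping exons named above, where AC069503.2, with 0 reads in each library, overlaps 14.9% of its exon length and WDR66, with 59, 43 and 63 reads, overlaps 4.97%. Its neighbours within 2 Mb had medians of 0.00 and -0.02. PSMD10, also called gankyrin, had the highest ratio of the group in SIRT7-KO, 0.23 (0.12 to 0.35), on 1291, 1182 and 1276 reads.

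NFE2L1 and the genes that carry a matching symbol differed by less than 1.2-fold. NFE2L1 (ENSG00000082641; chromosome 17, 48048329 to 48061487, plus strand) had 4635, 4039 and 3747 reads, or 41.0 FPKM, 41.7 FPKM and 39.8 FPKM. Its ratios were 0.04 (-0.02 to 0.10) and -0.06 (-0.12 to 0.01). NFE2L1 is activated through processing of the protein, which transcript levels do not measure. PSMC3IP, a recombination factor, had 380, 305 and 311 reads and ratios of -0.08 and -0.04, with intervals that include 0. PSME3IP1 had 0.12 (0.03 to 0.21) and 0.04.

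Set directly against each other, the knockout libraries differed at 1.2-fold in 9 of the 48 proteasome genes. Higher in USP39-KO were 6 (background 20%): PSMC1, PSMC2, PSME2, PSME3, PSMF1 and PSMG2. Lower in USP39-KO were 3 (background 21.2%): PSMA5, PSMB4 and PSMD4. Among genes with at least 1000 counts, 4 of 37 were higher and 3 lower, beside backgrounds of 19.4% and 18.2%. The median of the 48 genes was 0.06, beside 0.00 over all genes compared, and 81.2% lay within 1.2-fold, beside 48.2%. PSME2 had the highest ratio among genes with at least 100 counts (0.42, 0.25 to 0.59) and PSMB4 the lowest (-0.45, -0.52 to -0.39). PSMG2 had 0.40 (0.23 to 0.56), PSMD4 -0.41 (-0.49 to -0.33) and PSMC2 0.32 (0.24 to 0.39). The counts of PSMC1, PSME3 and PSMF1 lay close to the 1.2-fold size (0.27, 0.26 and 0.27), and with library totals in place of TMM 3 genes in place of 6 were higher.

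Genes that work with the proteasome were read from 4 lists of known function. Of 15 compared genes for NFE2L1 processing and partners, 2 were higher at 1.2-fold in USP39-KO (background 10.1%), the ubiquitin ligase adaptor BTRC (0.32, 0.21 to 0.43) and MAFF (0.28, 0.05 to 0.52), and none lower (background 13.6%). In SIRT7-KO none was higher (background 17.6%) and 2 were lower (background 18%), NFE2L2 (-0.46, -0.54 to -0.38), the antioxidant response factor, and BTRC (-0.35, -0.47 to -0.23). NFE2L2 had 3426, 3410 and 2098 reads, lowest in SIRT7-KO. These counts are near the background. The list medians were 0.01 and -0.03. HCFC1, on chromosome X, was listed at 0, which is not read as absence. The lowest ratios in USP39-KO were those of SEL1L (-0.13) and UBXN4 (-0.11).

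Of 18 proteasome-associated and shuttle genes, 1 was higher in USP39-KO (background 10.1%), the stress-induced ZFAND2A (0.27, 0.08 to 0.46), and none lower (background 13.6%; median 0.00). In SIRT7-KO 2 were higher and 2 lower (backgrounds 17.6% and 18%; median 0.06), which is not above the background. UBQLN4, a ubiquitin shuttle, had 2400, 1985 and 3008 reads and was high in SIRT7-KO (0.58, 0.50 to 0.66). It lies 4.64 Mb from PSMB4, in the stretch of chromosome 1 where most genes were above 0. TXNL1, a thioredoxin bound to the cap, was at 0.46 (0.36 to 0.57), PITHD1 at -0.58 (-0.73 to -0.43) and ECPAS at -0.26 (-0.33 to -0.20). None of 5 compared ubiquitin and activation genes passed in USP39-KO. In SIRT7-KO 1 of 5 was higher (background 17.6%), the polyubiquitin gene UBB (0.30, 0.20 to 0.40), and none lower (background 18%). UBA1, on chromosome X, was listed at 0, which is not read as absence.

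Class I antigen presentation, which uses the peptides that proteasomes cut, had 11 of 16 genes with enough reads. In USP39-KO 1 of the 11 was higher at 1.2-fold (background 10.1%), HLA-C, from 2 reads to 10 (2.28, 0.33 to 5.79), and 1 lower (background 13.6%), the peptide trimming enzyme ERAP2. Both were past 2-fold (backgrounds 1.49% and 3.37%). HLA-C lies in the region of chromosome 6 where most genes were listed at 0, and its counts are uncertain. ERAP2 had 79, 17 and 21 reads, low in both knockout libraries (-1.95, -2.83 to -1.21, and -1.64, -2.43 to -0.95), and was past 2-fold in each. In SIRT7-KO 1 was higher at 1.2-fold (background 17.6%), CALR (0.31, 0.28 to 0.34), and 3 were lower (background 18%), ERAP2, IRF1 (-0.67, -0.95 to -0.39) and ERAP1 (-0.57, -0.83 to -0.31). IRF1, an interferon-response factor that acts on immunoproteasome genes, had 312, 269 and 165 reads. The list medians were 0.00 and -0.18, and 5 of its genes were listed at 0.

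Genes outside the set that lay nearest to the median core subunit, which was at -0.05 in USP39-KO and -0.02 in SIRT7-KO, were NFAT5, APEX1, BCOR, AACS and ACTR3. Likeness was the distance in the pair of log2 ratios over 3 libraries, and was 0.0023 to 0.0089 for these 5. Among 3729 candidates with at least 1000 counts in every library 543 lay within 0.1, so the pattern is shared by many genes.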

How the data were processed

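RNA was measured in 3 Hep3B libraries, 1 per group, made with a TruSeq kit from total RNA, per the labels' protocols. The authors deposited read counts per gene, whole numbers that were not normalized, together with gene lengths and per-library FPKM, per the file headers. The deposited FPKM values are counts scaled by the listed length and the library total, which was checked on every gene with reads. For the aligner, counting program, strand setting, genome build and annotation, each was not given in the sources used here. No column was left without a library.

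Symbols and positions came from GENCODE 29 by Ensembl identifier (52 of 52 members matched), and the listed gene length was within 1% of the GENCODE 29 exon length for 40 of 52. Counts were scaled with TMM factors (edgeR 4.0.16; 1.000, 0.990 and 1.01 for control, USP39-KO and SIRT7-KO), and log2 ratios used a prior of 0.5 counts. Genes with at least 10 counts in 1 library were compared. A single library per group leaves no spread to estimate, and no p-value is given. Intervals are exact conditional binomial (Clopper-Pearson) at 95%. Because the reads carry no molecular identifiers, the intervals and the floor of 3 counts for 0 reads cover counting error only. The log2 ratios, intervals and size rules were tested on simulated counts that held counting error only, with library sizes taken as known. Scaling, neighbour windows, exon overlaps, the region of zeros and motif searches were not tested that way.

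The members, lists and rules were chosen with earlier results of these data known. Named were, in each role and comparison, the genes with the highest and lowest ratio among those with at least 100 counts, the gene with the highest FPKM, every gene past 2-fold or under 10 counts, and a fixed set of catalytic, immunoproteasome, activator and regulator genes. From each list the 2 highest, the 2 lowest and any past 2-fold could be named. Other members past 1.2-fold, those with overlapping exons and those near the size rule were named after their values were seen, as were PSMA3, PSMA4, PSMD12, PSMD14, PSMG1, list genes at 0 and the genes at 0 near PSMB9. Neighbour windows (2 Mb and 0.5 Mb, at least 300 summed counts), exon overlaps and the region of zeros were also chosen after seeing the data. Promoters came from RefSeq (GRCh38.p14), matched by symbol for 46 of 52 members. Alternatives were other scalings, a prior of 5 counts, count filters, a 1.5-fold size and ratios relative to neighbours.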

Additional observations from a re-analysis of the deposited data

How the results depend on the processing

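No paired analysis was possible because each group has 1 library and the labels give no replicate numbers, and for the same reason no library could be left out. The median of the proteasome genes ran from -0.028 to 0.0041 in USP39-KO (above 0 only relative to neighbours), from -0.063 to -0.044 in SIRT7-KO and from 0.027 to 0.060 between the knockouts over the alternatives run. At a 1.5-fold size, USP39-KO had 1 gene lower, SIRT7-KO 0 higher and 1 lower, and the direct comparison 0 higher and 0 lower. No share of all genes is given here for that size, for library totals or relative to neighbours. Counts under these settings are therefore not read as few or many. With library totals 3 genes in place of 6 were higher in USP39-KO over SIRT7-KO. Relative to the median of neighbouring genes, an alternative chosen after seeing the data, 0 genes were higher in SIRT7-KO and 1 was lower in USP39-KO over SIRT7-KO, namely PSMD11 (-0.46), which was not among the 3 lower genes before. PSMA5 then changed sign in USP39-KO against control (0.0096), and between the knockouts PSMA5 (0.062), PSMB4 (0.026) and PSMD4 (0.0089) did. In SIRT7-KO against control PSMG1 was at -0.35 relative to its neighbours, beyond 1.2-fold, and PSMG2, at -0.12, was no longer so. The cause of these shifts was not tested. All 102 ratios of named genes moved by less than their counting interval, and none past 1.2-fold changed sign, under DESeq2 size factors, TMM without mitochondrial-genome genes, library totals and a prior of 5 counts. Depth limits PSMB10, PSMA2, PSMA6 and PSMD9, whose intervals span over 0.9 on the log2 scale.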
